A study of Homo sapiens with 3 samples.

Results

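Cells in which under 0.5% of unique molecular identifiers (UMIs) came from mitochondrially encoded genes were examined in BxPC-3, an established human line of pancreatic ductal adenocarcinoma cells. They were chosen by that share alone, among barcodes with at least 6500 UMIs and 500 genes, and numbered 1168 of 5640 kept cells. They are called low-mitochondrial cells below. The reference was the 3588 cells with 0.5 to 3% mitochondrial UMIs, compared within each library. A further 884 cells at 3% or more were not compared.

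The study mixed BxPC-3 cells that stably carried EGFP with others that carried mCherry, and held them in suspension so that cells could enter one another (cell-in-cell structures). Sorting then separated a double-positive library, whose cells gave both signals, from a single-positive library, whose cells gave 1 signal. A parental library of the same line was the negative control. Each condition had 1 library made with a 10x Chromium 5' kit, which reads the start of the transcript, so conditions cannot be told apart from libraries. The labels do not say whether parental cells had been in suspension or carried a fluorescent protein, nor when the cells were expanded.

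The mitochondrial genome encodes 13 proteins of respiratory complexes I, III, IV and V, and its RNA is made and processed inside the organelle by nuclear-encoded factors. The remaining respiratory subunits are made from nuclear genes and imported. In droplet data the mitochondrial share of UMIs is widely used as a sign of cell quality, and a high share is often read as a sign of leaking cells.

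The libraries held between 51637677 and 65107147 UMIs, of which 97.7 to 98.0% lay in kept cells. Of 5632 distinct kept barcodes, 8 occurred in more than 1 library, and no barcode was low-mitochondrial in more than 1. Of the low-mitochondrial barcodes, 4 were kept in another library too. No doublet caller was run, so doublets may remain, also among the deepest cells. The label of an epithelial carcinoma line held in the low-mitochondrial cells: all 11 epithelial markers were present and summed to 10704 to 11000 CPM (UMIs per 1000000 non-mitochondrial UMIs of the same cells). Fibroblast markers summed to at most 5.63 CPM there and endothelial markers to at most 2.92 CPM. COL1A2 and PDGFRB of fibroblasts and CLDN5 and KDR of endothelium were at 0 in all low-mitochondrial sums. Of 15 immune markers, PTPRC was at 0 and CD68, which carcinoma cells also express, made up most of a sum of 33.0 to 48.9 CPM. The haemoglobin gene HBG2 was found at 10.8 to 13.6 CPM, against 14.7 to 17.8 CPM in the reference cells.

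Low-mitochondrial cells made up 31.8% of the parental library (767 of 2409 cells, 95% exact binomial interval 29.98 to 33.7%). They made up 21.8% of the single-positive library (281 of 1291, 19.5 to 24.1%) and 6.19% of the double-positive library (120 of 1940, 5.15 to 7.35%). The intervals do not overlap, but they cover counting error only, and with 1 library per condition the order could not be tested. In the depth window where the interquartile ranges of all 3 libraries overlap, 22974 to 32998 UMIs per cell, the shares were 30.6% (of 628 cells), 12.7% (of 142 cells) and 3.42% (of 701 cells). A group of 224 cells that lay mostly in the single-positive library held no low-mitochondrial cell, and the single-positive share was 26.0% without clusters mostly of 1 library.

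The share was highest in the deepest cells of every library. In parental cells it was 6.14% from 6500 to 10000 UMIs, 28.1% from 20000 to 30000 UMIs and 90.7% at 60000 UMIs or more (49 of 54 cells). In single-positive cells it was 2.38% in the first and 47.2% in the last of these bins (93 of 197 cells). In double-positive cells it was 2.78%, then 2.05% from 10000 to 20000 UMIs, and 24.4% in the last bin (11 of 45 cells). A larger total lowers a share by construction, so the mitochondrial UMIs themselves were counted. Their median per parental cell was 239 from 20000 to 30000 UMIs, 139 from 40000 to 60000 and 37.5 at 60000 or more. No such fall was seen in the other libraries, where the medians at 60000 UMIs or more were 424 (single-positive) and 688 (double-positive), against 358 and 547 from 20000 to 30000.

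**Figure D1:**
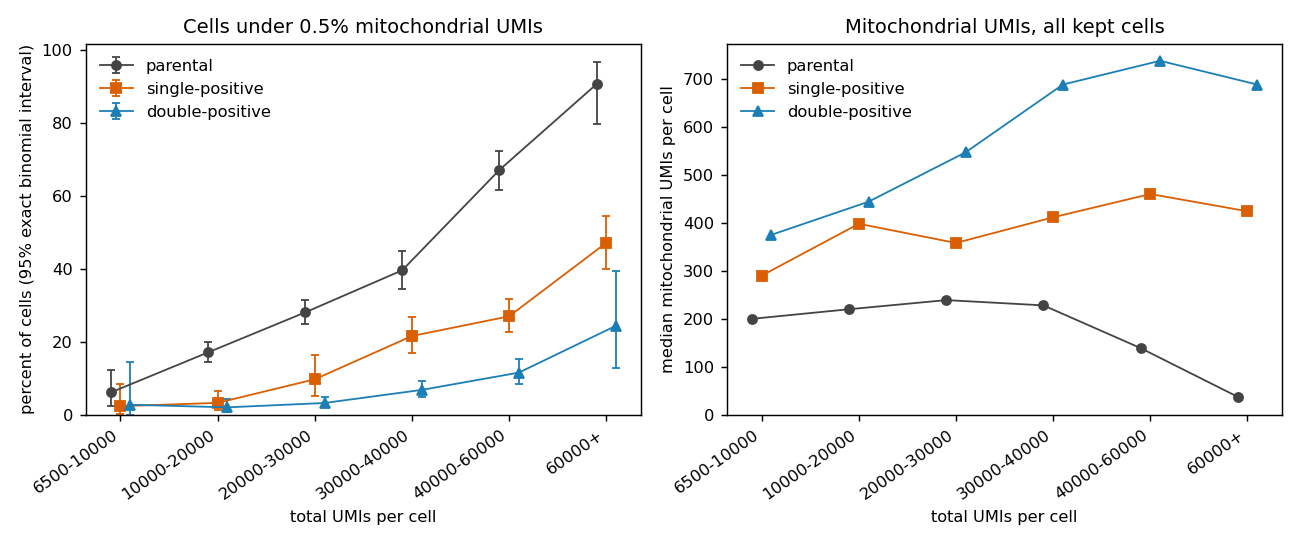
Left, percent of kept cells under 0.5% mitochondrial UMIs by total UMIs per cell, with 95% exact binomial intervals; right, median mitochondrial UMIs per kept cell in the same bins, each for the 3 libraries. The share is highest in the deepest cells of every library, and the mitochondrial UMIs of parental cells drop from 239 to 37.5 while those of the other libraries do not.

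The choice by share gave cells with few mitochondrial UMIs in absolute terms, which is a description and not a test. The median was 60 per low-mitochondrial cell against 280 per reference cell in the parental library, 98 against 505 in the single-positive and 105 against 528 in the double-positive library. Their total UMIs were higher, with medians of 31738 against 21742, 49369 against 39934 and 39014 against 30861.5. No mitochondrial UMI at all was found in 21 parental, 5 single-positive and 2 double-positive cells, whose median depths were 28124, 34242 and 12490 UMIs. A count of 0 at those depths allows a share of up to 0.0107%, 0.00876% and 0.0240%. The rule cut through a continuum: 116 parental cells at 0.4 to 0.5% had a median of 122 mitochondrial UMIs, and 113 cells at 0.5 to 0.6% had 134. Near-empty droplets, which carry free RNA, had 2.97%, 4.93% and 4.87% mitochondrial UMIs, above the share in the chosen cells.

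The mitochondrial RNA that remained had another make-up. All 13 genes were lower in CPM of all UMIs in the chosen cells, by 4.87-fold (MT-ND3 in double-positive) to 17.2-fold (MT-ND6 in parental). MT-CO2, a core subunit of complex IV, took 48.2%, 43.1% and 47.4% of mitochondrial UMIs in low-mitochondrial cells of the parental, single-positive and double-positive libraries. In reference cells it took 38.3%, 35.5% and 37.8%, and in near-empty droplets 30.1%, 26.9% and 28.8%. MT-ND3, a subunit of complex I, also took more: 2.98%, 3.20% and 2.84% against 2.23%, 2.63% and 2.17%.

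MT-ND6, the complex I subunit encoded on the opposite strand to the other protein genes, showed the reverse. It took 0.232%, 0.403% and 0.209% of mitochondrial UMIs in low-mitochondrial cells, 0.591%, 0.632% and 0.542% in reference cells and 0.837%, 0.818% and 0.842% in near-empty droplets. MT-ND5 fell from 2.31%, 2.46% and 2.36% in reference cells to 1.49%, 1.75% and 1.43%. MT-CO3 fell from 7.94%, 9.29% and 8.19% to 5.94%, 7.28% and 5.74%. For each of these 5 genes the binomial intervals of both classes were apart in every library. For these 5 genes near-empty droplets lay on the far side of the reference cells. Their intervals overlapped those of the reference for MT-ND3 in parental alone. MT-ND2 and MT-ND4 broke this order. MT-ND2 took 2.10% in low-mitochondrial cells, 1.84% in reference cells and 2.31% in near-empty droplets of the parental library. In double-positive it took 2.14%, 1.78% and 1.93%. MT-ND4 took 3.08%, 2.85% and 3.06% in parental and 3.19%, 2.79% and 2.87% in double-positive. In single-positive both had droplets on the far side. For both, droplet and reference intervals overlapped except for MT-ND2 in parental. The mitochondrial genes chose the members, so no test was made.

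**Figure D2:**
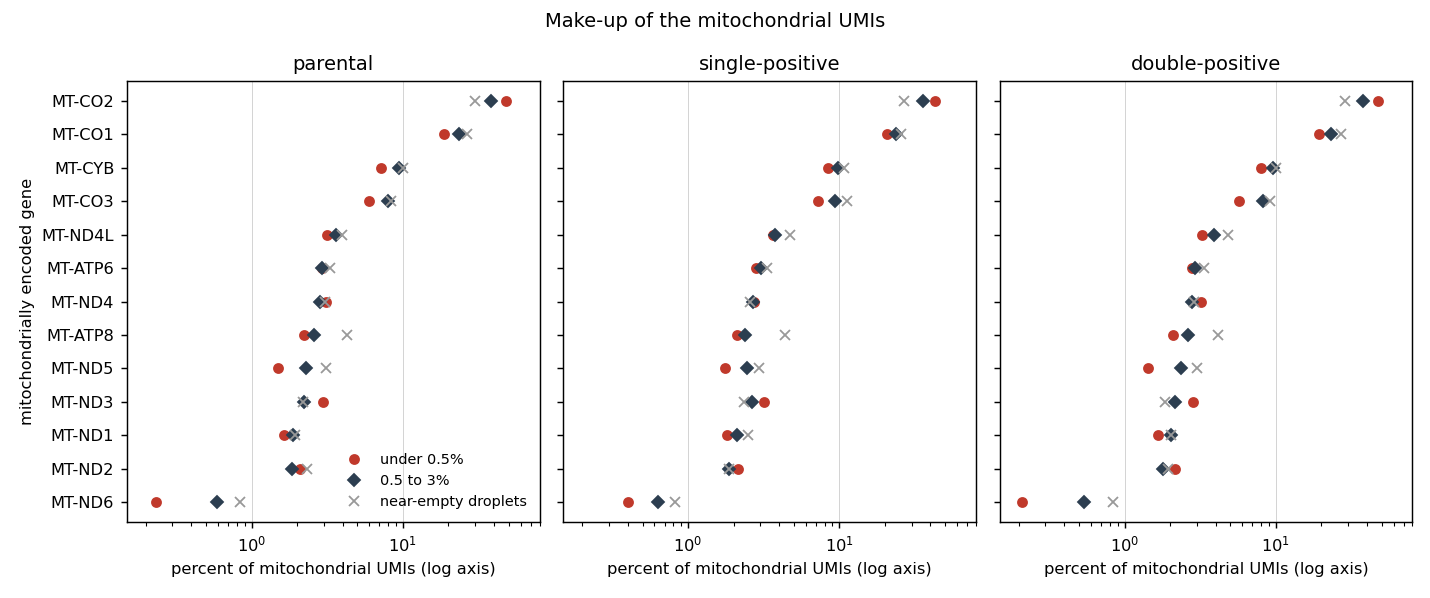
Percent of mitochondrial UMIs taken by each of the 13 mitochondrially encoded genes (log axis), for low-mitochondrial cells, reference cells and near-empty droplets, 1 panel per library. MT-CO2 lies right of the reference in low-mitochondrial cells (48.2% against 38.3% in parental) and MT-ND6 lies left of it (0.232% against 0.591%).

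To see what else set the cells apart, each low-mitochondrial cell was matched to a reference cell of the same library with non-mitochondrial UMIs within 5%. This gave 627 parental, 272 single-positive and 117 double-positive pairs, and the matched parental cells had a median of 27525 non-mitochondrial UMIs, against 31738 UMIs in all 767. UMIs of nuclear genes were summed by class and library, and edgeR's quasi-likelihood test with the library as a block asked which genes differed in the same way across libraries. The spread it measures is that of the class difference between 3 conditions, not between repeat cultures. Of 12772 genes tested, 139 were higher in low-mitochondrial cells (1.09%) and 61 were lower (0.478%) at an adjusted p under 0.05. The difference had 1 sign in all libraries for 136 of the 139 and for 61 of the 61. It reached 2-fold for 10 higher genes and 1 lower gene. Without the double-positive library 212 genes were higher, and without the parental library 18 were lower.

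Low-mitochondrial cells had more RNA of C15orf48, LCN2, WFDC2, CXCL8, CXCL3 and CLDN4, and of 11 of 28 NF-kB and cytokine genes. They had less of the nuclear-retained RNA MALAT1, of the linker histone gene HIST1H1E, and of 3 of 45 S phase and 6 of 52 G2 and mitosis genes. Replication-dependent histone genes went both ways, with 3 of 47 lower and 3 higher. RNA for the nuclear-encoded respiratory chain and for the factors that copy and transcribe mitochondrial DNA passed the test for hardly any gene. The general epithelial and housekeeping genes KRT19, GAPDH and ACTB did not pass, with log2 fold changes of 0.03, 0.07 and -0.01.

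The 12 highest and 12 lowest genes were named among called genes with 1 sign in every library, so that agreement was required. C15orf48 had the largest difference of the 12 highest. It encodes a small mitochondrial protein related to the complex IV associated subunit NDUFA4 and lies at chr15:45430529-45448761 (GRCh38). Its summed level in low-mitochondrial against reference cells was 577 against 426 CPM in the parental, 469 against 161 CPM in the single-positive and 774 against 361 CPM in the double-positive library. The 5 highest low-mitochondrial cells held 11.7%, 39.3% and 30.3% of its UMIs. The low-mitochondrial sum was the higher one each time, with a log2 fold change of 1.01 (SD of the 3 library ratios 0.56, edgeR adjusted p = 0.00201). Without the 5 highest cells of each class and library, a setting added after seeing these shares, it was 1.07.

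LCN2, at chr9:128149071-128153455, encodes lipocalin-2, a secreted protein that binds iron-carrying siderophores and is induced by NF-kB. It stood at 854 against 738 CPM in parental, 894 against 366 CPM in single-positive and 997 against 449 CPM in double-positive cells. Its log2 fold change was 0.87 (SD 0.59, edgeR adjusted p = 0.00789), and the parental log2 ratio of 0.21 was the smallest of the 3. The 5 highest low-mitochondrial cells held 17.5%, 40.6% and 45.6% of its UMIs, and the median cell held 5 against 4, 4 against 5 and 8 against 5 UMIs, so in single-positive cells the median went the other way from the sum. WFDC2, a secreted protease inhibitor-like protein, followed the same order of libraries: 792 against 613, 697 against 343 and 735 against 383 CPM (log2 fold change 0.77, SD 0.36, edgeR adjusted p = 0.0011).

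The chemokine genes CXCL8 and CXCL3 encode attractants of neutrophils. CXCL8, at chr4:73740506-73743716, stood at 84.8 against 64.0, 79.6 against 46.5 and 110 against 23.1 CPM (log2 fold change 0.93, SD 0.97, edgeR adjusted p = 0.0281). The median cell had 0 UMIs of it in both classes, and the 5 highest low-mitochondrial cells held 36.6%, 65.9% and 74.4% of its UMIs in the parental, single-positive and double-positive library. With the 5 highest cells left out, its log2 fold change was 0.47 (edgeR adjusted p = 0.00506), and without the double-positive library it was 0.58. CXCL3 stood at 61.7 against 29.4, 48.2 against 41.0 and 93.0 against 36.8 CPM. Its log2 fold change was 0.83 (SD 0.57, edgeR adjusted p = 0.00972), and 0.53 with the 5 highest cells left out. The median cell had 0 UMIs of CXCL3 in both classes, and the 5 highest low-mitochondrial cells held 47.7%, 53.3% and 81.1% of its UMIs.

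The starts of these NF-kB responsive genes are shown because they were higher together. The 250 bases before each start follow in the gene's direction, from RefSeq on GRCh38.p14. Capitals mark every match on either strand of GGGANNNNCC, a form of the NF-kB site chosen with the results known. A marked run is a match to this pattern only and was not checked as a binding site. NF-kB sites of another form stay in small letters.

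LCN2, plus strand, chr9:128149203-128149452: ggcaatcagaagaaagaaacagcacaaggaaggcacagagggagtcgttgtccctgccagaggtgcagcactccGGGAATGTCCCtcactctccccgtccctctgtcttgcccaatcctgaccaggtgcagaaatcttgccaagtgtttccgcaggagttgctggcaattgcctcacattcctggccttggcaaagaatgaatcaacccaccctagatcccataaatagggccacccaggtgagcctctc

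CXCL3, minus strand, chr4:74038690-74038939: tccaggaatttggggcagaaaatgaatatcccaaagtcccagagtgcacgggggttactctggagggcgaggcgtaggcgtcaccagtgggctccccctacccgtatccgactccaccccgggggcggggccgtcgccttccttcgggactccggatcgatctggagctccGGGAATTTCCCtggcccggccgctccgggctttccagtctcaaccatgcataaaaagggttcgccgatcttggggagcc

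CXCL8, plus strand, chr4:73740319-73740568: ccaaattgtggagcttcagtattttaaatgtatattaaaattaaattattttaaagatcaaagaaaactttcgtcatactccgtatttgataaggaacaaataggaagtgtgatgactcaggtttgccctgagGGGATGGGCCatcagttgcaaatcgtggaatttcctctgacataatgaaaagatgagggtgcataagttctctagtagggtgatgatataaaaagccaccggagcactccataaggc

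In LCN2 and CXCL3 the marked run holds a match on each strand, and these overlap. The promoter table held 10 of the 12 highest genes and 7 of the 12 lowest, by symbol. Some genes have several promoters there. A match lay in 6 of 13 promoters of the higher genes (46.2%) and in 3 of 12 promoters of the lower genes (25%). Of all 35116 promoters in the table, 22.6% held one. Counted by gene, the shares were alike: 4 of 10 higher genes (40%) and 3 of 7 lower genes (42.9%). Promoters of 1 gene overlap in part, so these are no independent counts.

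Among the other genes of the 12 highest, several belong to epithelial differentiation and stress. ASS1, argininosuccinate synthase of arginine production, stood at 188 against 141, 180 against 86.6 and 214 against 124 CPM (log2 fold change 0.74, SD 0.32, edgeR adjusted p = 0.0011). CLDN4, a tight junction claudin, stood at 332 against 246, 232 against 146 and 326 against 228 CPM, with the smallest adjusted p of the 12 (log2 fold change 0.54, SD 0.12, edgeR adjusted p = 0.000373). BBC3, the pro-apoptotic BH3-only protein PUMA, stood at 56.3 against 42.2, 40.2 against 27.5 and 65.9 against 29.4 CPM (log2 fold change 0.63, SD 0.40). All 3 were higher in each library.

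The remaining ones were RAMP1 (a partner of the calcitonin receptor-like receptor, log2 fold change 0.64), SPRR1A (a cornified envelope precursor, 0.61), NINJ1 (which mediates rupture of the plasma membrane in dying cells, 0.61) and MAP3K8 (a kinase of inflammatory signalling, 0.51). Their sums in low-mitochondrial cells lay between 26.8 and 41.0 CPM in every library. Of the 12, 11 passed with any 1 library left out. NINJ1 did not pass without the parental library (log2 fold change 0.49, edgeR adjusted p = 0.0505).

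**Figure D3:**
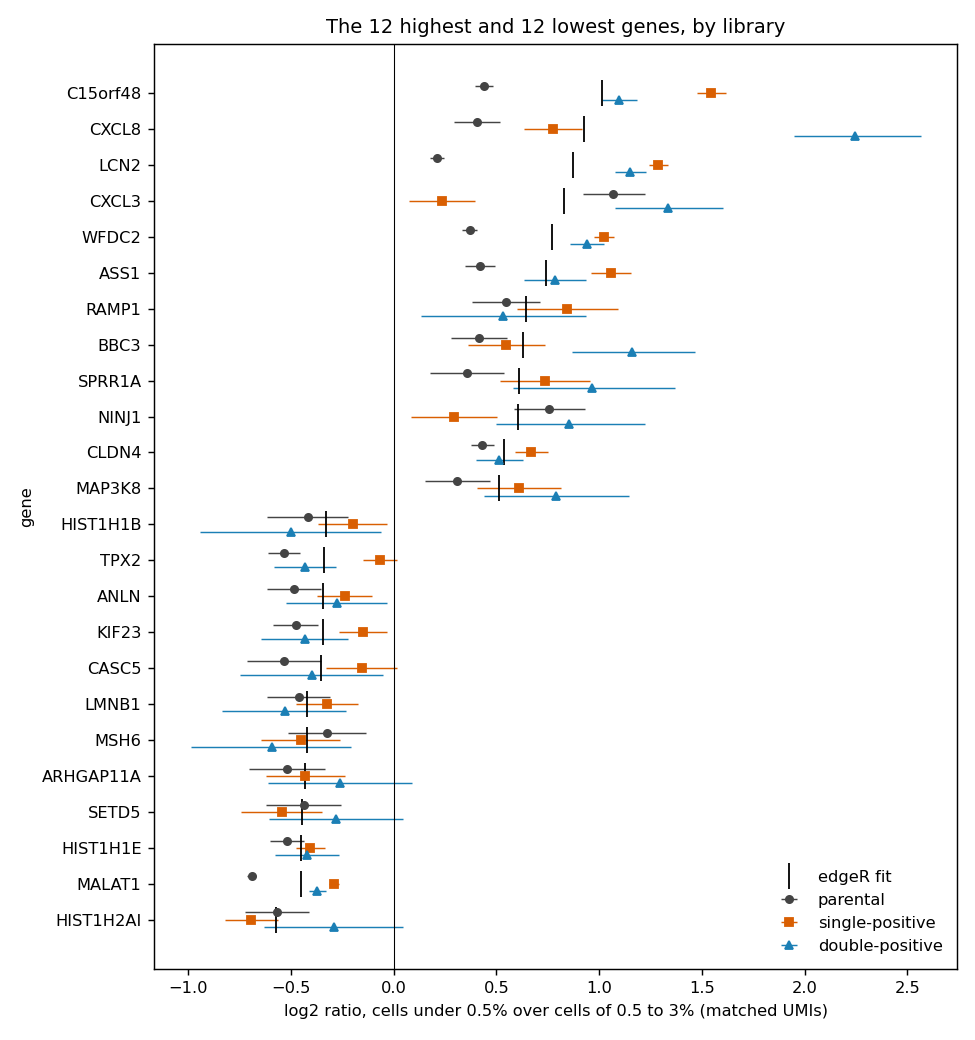
Log2 ratio of summed CPM, low-mitochondrial over depth-matched reference cells, for the 12 highest and 12 lowest genes; symbols are the 3 libraries with 95% exact intervals from counts, and vertical bars the edgeR fit. All 24 genes lie on 1 side of 0 in every library because the naming rule required it. LCN2 and C15orf48 have their smallest ratios, 0.21 and 0.44, in parental cells.

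Lists of pathway genes were counted against the 1.09% of genes that were higher and 0.478% that were lower. In the list of NF-kB and cytokine genes, 11 of 28 tested were higher and none lower, with a median log2 fold change of 0.37 against -0.0048 for all genes; the library medians were 0.22, 0.20 and 0.72. Besides those above they included the acute phase gene SAA1 and, named after their values were seen, IL32, CXCL2, ICAM1, TNFAIP2, the manganese superoxide dismutase SOD2 and the apoptosis inhibitor BIRC3. ICAM1, BIRC3 and TNFAIP2 did not pass without the parental library (edgeR adjusted p = 0.272, 0.104 and 0.0788), nor TNFAIP2 without the double-positive one (0.0504). Of the 11, 7 passed with any library left out and 9 without the 5 highest cells. SAA1 stood at 105 against 106 CPM in parental, 158 against 54.8 in single-positive and 165 against 46.5 in double-positive cells. The parental sums were alike, with a log2 ratio of -0.01. Its fold of 1.00 on the log2 scale was 1.65 without the parental library and did not pass without the double-positive one (0.72, edgeR adjusted p = 0.122). CXCL2 had a log2 fold change of 0.44, and 0.27 without the double-positive library.

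In the list of interferon response genes 4 of 42 were higher, ISG20 and, named after their values were seen, USP18, OAS1 and ISG15. The median was 0.15, with library medians of 0.14, 0.19 and -0.007. Only ISG20 passed with any library left out, at 0.28 without the single-positive library against 0.45 with all. Of 13 mitophagy genes, which act in the removal of damaged mitochondria, 3 were higher. The autophagy receptor OPTN stood at 83.0 against 67.5, 77.4 against 62.1 and 86.3 against 66.6 CPM (log2 fold change 0.32, SD 0.04, edgeR adjusted p = 0.0149) and passed with any library left out. MAP1LC3B, the autophagosome protein LC3B (0.30), and SQSTM1, the receptor p62 (0.17), did not pass without the parental library, with edgeR adjusted p = 0.0774 and 0.138, nor SQSTM1 without the single-positive one (0.212). Of the p53 targets, 3 of 24 were higher: BBC3, GADD45A (0.26) and CDKN1A, the cell cycle inhibitor p21 (0.26). CDKN1A did not pass without the single-positive library (edgeR adjusted p = 0.076). Of 11 ferritin and metallothionein genes 2 were higher, the ferritin chains FTH1 (0.24) and FTL (0.24), neither of which passed without the single-positive library (edgeR adjusted p = 0.193 and 0.12).

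**Figure D4:**
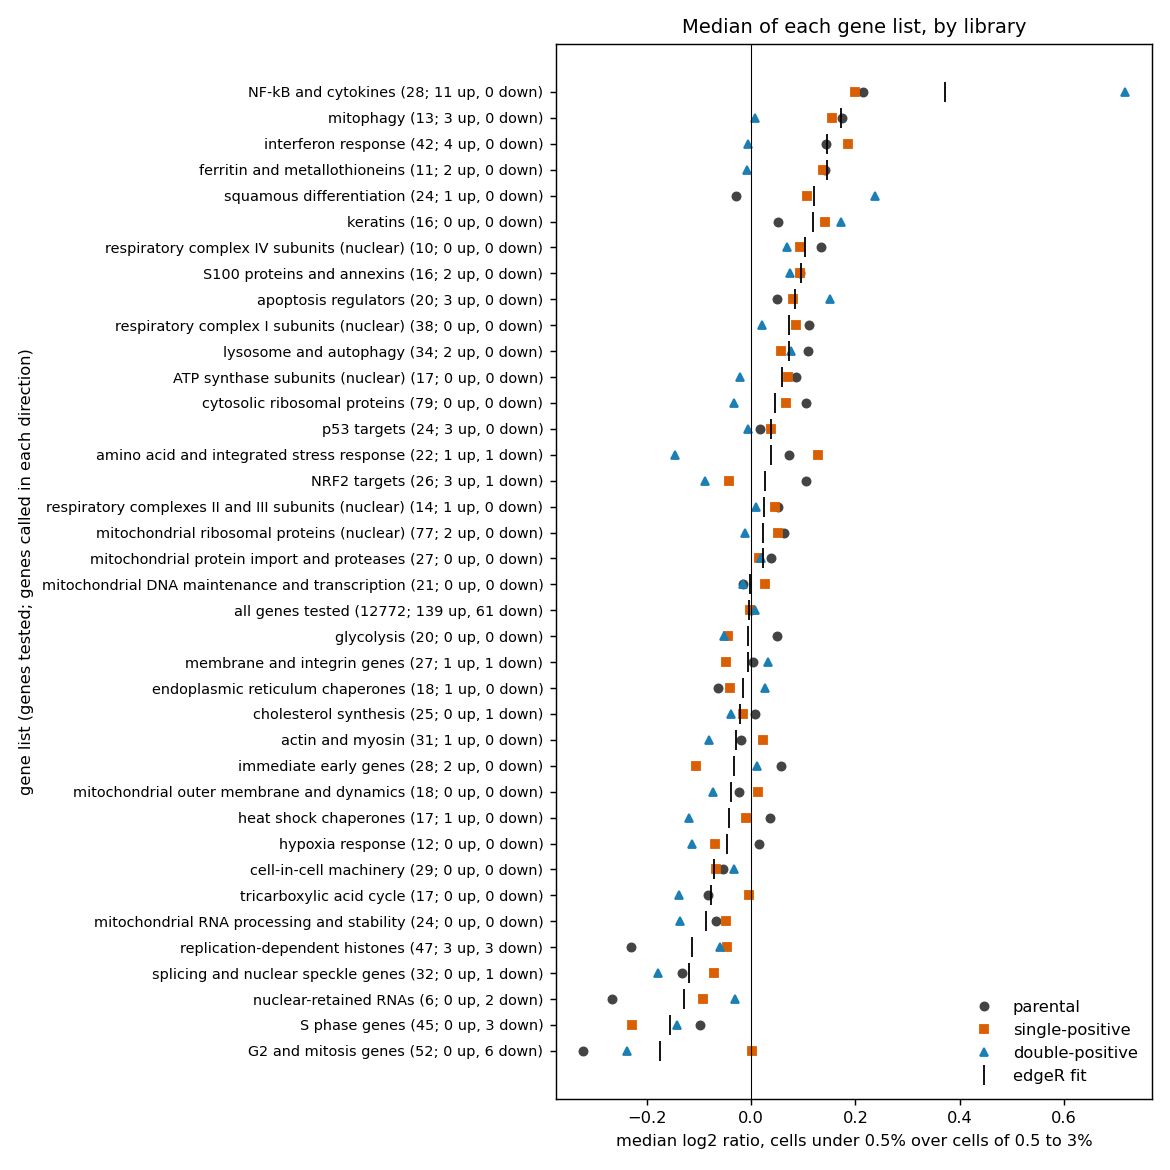
Median log2 ratio of each gene list, low-mitochondrial over reference cells, in the 3 libraries (symbols) and in the edgeR fit (bars), with genes tested and called beside each name. The NF-kB list stands at 0.37 and the G2 and mitosis list at -0.17, where the single-positive median was 0.0008.

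Nuclear genes for the mitochondrion were examined from the same table. No gene of the 38 nuclear complex I subunits, the 10 of complex IV or the 17 of ATP synthase passed the test, and their medians were 0.07, 0.10 and 0.06. Most of them lay slightly above 0 all the same: 33 of 38, 10 of 10 and 11 of 17, against 6206 of all 12772 genes. The library medians of complex IV were 0.13, 0.09 and 0.07, those of complex I 0.11, 0.09 and 0.02, and those of ATP synthase 0.09, 0.07 and -0.02. These shifts of whole lists were not tested, and the comparison with all genes did not match transcript length. The 1521 genes with the shortest transcripts, described below, had a median of 0.07, with library medians of 0.10, 0.07 and 0.01. NDUFA3 of complex I stood near the limit, at 0.21 (edgeR adjusted p = 0.0504). In complexes II and III 1 of 14 was higher, UQCRQ (0.18), which did not pass without the parental or without the single-positive library. Of 77 mitochondrial ribosomal protein genes 2 were higher, MRPS6 (0.30) and MRPL36 (0.23), and neither passed without the parental or without the single-positive library.

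None of 21 genes for mitochondrial DNA maintenance and transcription passed. TFAM, the factor that packages and activates mitochondrial DNA, stood at 93.7 against 90.1, 97.3 against 93.6 and 86.3 against 98.6 CPM, and its ratios had different signs between libraries (log2 fold change -0.01, edgeR adjusted p = 0.978). POLRMT, the mitochondrial RNA polymerase, was measured with 33 to 176 UMIs per sum and had a log2 fold change of -0.04. None of 24 genes of mitochondrial RNA processing and stability passed, with a median of -0.09. LRPPRC, which stabilises mitochondrial messenger RNA, stood at 64.2 against 77.1, 70.3 against 78.1 and 63.3 against 79.6 CPM. It was lower in each library, and its log2 fold change of -0.24 did not pass (SD 0.09, edgeR adjusted p = 0.0671).

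On the lower side, MALAT1, a long noncoding RNA kept in the nucleus (chr11:65497688-65506516), stood at 1420 against 2292, 1764 against 2155 and 1822 against 2357 CPM. It was lower in each library, most in parental cells, with a log2 fold change of -0.45 (SD 0.21, edgeR adjusted p = 0.0029). The median cell held 25 against 51 of its UMIs in the parental, 55 against 82 in the single-positive and 50 against 57 in the double-positive library. NEAT1, another nuclear-retained RNA, had a log2 fold change of -0.10 and was not called, with ratios of -0.28, -0.10 and 0.10 in the libraries. Of 6 nuclear-retained RNAs tested 2 were lower.

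The level of MALAT1 was followed over finer steps of mitochondrial share, as a description. Depth was matched between the classes, not between these steps. In parental cells the median was 25384 non-mitochondrial UMIs at 0.3 to 0.5% and 31507 under 0.1%. In parental matched cells it was 2576 CPM at 1 to 3%, 1964 at 0.5 to 1%, 1586 at 0.3 to 0.5%, 1366 at 0.1 to 0.3% and 1065 CPM under 0.1%. In double-positive cells it was 2420, 2131, 2023, 1683 and 1432 CPM over the same steps, the last from 13 cells. In single-positive cells it was 2526 CPM at 1 to 3%, between 1839 and 1941 CPM in the middle steps and 1313 CPM under 0.1%. C15orf48 had its lowest level at 1 to 3% in every library, at 317, 117 and 319 CPM. From there it reached 697, 658 and 618 CPM under 0.1%, but its highest double-positive value, 913 CPM, lay at 0.3 to 0.5%. In parental cells it was 580 CPM at 0.5 to 1%, above 497 and 516 CPM at 0.1 to 0.3% and 0.3 to 0.5%. Parental LCN2 was highest at 0.5 to 1%, at 951 CPM, against 757 to 846 CPM in the steps under 0.5%. In single-positive cells both genes were lower at 0.5 to 1% (224 and 530 CPM) than in each step under 0.5%. In double-positive cells C15orf48 was too (527 CPM), while LCN2 (498 CPM) was above the step under 0.1% (189 CPM) and below the others under 0.5%. In single-positive cells CXCL8 was 193 CPM under 0.1%, 28.8 CPM at 0.1 to 0.3% and 58.5 CPM at 0.3 to 0.5%. The reference steps had 33.6 CPM (0.5 to 1%) and 59.6 CPM (1 to 3%). Parental CXCL8 was 110, 64.5 and 80.1 CPM over the steps under 0.5%, from the lowest up. Its reference steps had 90.1 and 45.5 CPM. In double-positive cells each step under 0.5% (29.1, 82.4 and 153 CPM) lay above the reference steps (18.9 and 24.3 CPM). KRT19 stayed between 1894 and 2313 CPM in all of these steps.

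**Figure D5:**
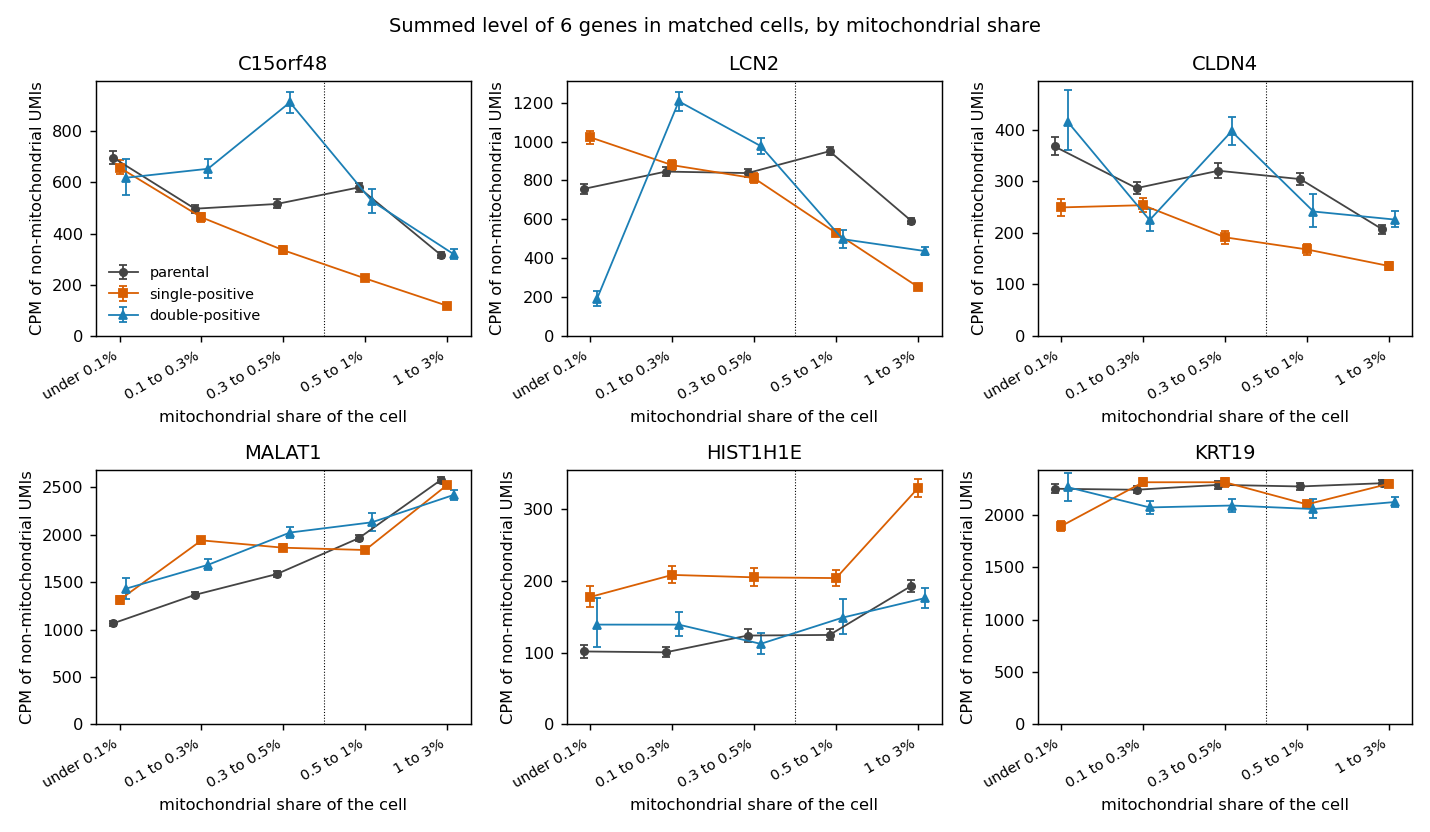
Summed CPM of 6 genes in the cells of the matched pairs by mitochondrial share of the cell, with 95% Poisson intervals from counts. Depth was matched between the classes, not between steps, and the dotted line is the 0.5% limit. MALAT1 falls from right to left (2576 to 1065 CPM in parental), C15orf48 is lowest at 1 to 3%, and KRT19 lies between 1894 and 2313 CPM.

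Histone genes held 3 of the 12 lowest genes. HIST1H1E, a linker histone, stood at 113 against 162, 200 against 265 and 127 against 170 CPM (log2 fold change -0.45, SD 0.06, edgeR adjusted p = 0.000848). HIST1H2AI, an H2A gene with near-identical copies that counting could mix, stood at 31.1 against 46.1, 56.2 against 90.8 and 29.1 against 35.7 CPM (log2 fold change -0.57). HIST1H1B had -0.33 and did not pass without the parental or without the double-positive library (edgeR adjusted p = 0.346 and 0.064). Of 47 replication-dependent histone genes tested, 3 were lower and 3 higher. The higher ones were HIST1H2BJ, HIST1H2BC and, named after its values were seen, HIST1H2AC, and none of these passed with every library left out in turn.

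Among the other genes of the 12 lowest, 3 were on the G2 and mitosis list. LMNB1, lamin B1 of the nuclear envelope, stood at 33.1 against 45.5, 46.7 against 58.4 and 34.1 against 49.3 CPM (log2 fold change -0.42, SD 0.11, edgeR adjusted p = 0.00825). MSH6, a DNA mismatch repair protein, had -0.42, and SETD5, a chromatin regulator, -0.44. The kinetochore gene CASC5 (-0.35), the cytokinesis kinesin KIF23 (-0.34), the contractile ring protein ANLN (-0.34) and the spindle factor TPX2 (-0.34) did not pass without the parental library. Their log2 fold changes were then -0.23, -0.26, -0.25 and -0.22 (edgeR adjusted p from 0.216 to 0.432). CASC5 and TPX2 also did not pass without the double-positive library (edgeR adjusted p = 0.0659 and 0.0764). Of the 12 lowest, 6 passed with any 1 library left out; without the parental library 6 passed, and without the double-positive library 9.

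Of 45 S phase genes 3 were lower, MCM3, MCM4 and, named after its values were seen, CDCA7, and of 52 G2 and mitosis genes 6 were lower; none was higher. Their medians were -0.16 and -0.17, and 42 and 49 of them respectively lay at or below 0. Phase calls on cells thinned to 6000 UMIs put 13.9%, 19.1% and 14.5% of matched low-mitochondrial cells in S phase, against 17.1%, 25.4% and 17.1% of reference cells. G1 calls were 53.6%, 39.7% and 47.9% against 42.9%, 39.3% and 40.2%. G2/M calls went both ways, at 32.5%, 41.2% and 37.6% against 40.0%, 35.3% and 42.7% (exact sign-flip permutation p = 0.75, two-sided). Over all cells, without matching, the G1 share in single-positive cells was 39.5% against 42.0%, the reverse of the matched direction. The matched S and G1 shares had 1 direction in the 3 libraries, where an exact sign-flip permutation test gives a two-sided p = 0.25, the smallest this design allows (0.333 adjusted over 8 per-cell measures). When cells were matched within phase as well, 1 of the 3 S phase and 2 of the 6 G2 and mitosis genes passed, and 10 of the 11 NF-kB genes did. The phases were scored from these same S phase and G2 and mitosis lists, so this matching evens out their genes by construction. The loss of cell cycle genes therefore cannot be set against the NF-kB genes that were kept. None of these 9 cell cycle genes passed with every library left out in turn.

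Measures of the RNA as a whole moved with the class too, and their part in the gene differences was not tested. At 6000 UMIs per cell, low-mitochondrial cells had medians of 2211, 2243 and 2236 genes, against 2286, 2317 and 2277 in their matched cells. The 50 highest genes took 26.8%, 26.0% and 26.5% of UMIs against 25.6%, 24.9% and 25.8%. Both had the same sign in all libraries (exact sign-flip permutation p = 0.25, adjusted 0.333). Ribosomal protein genes took 17.5%, 17.9% and 17.6% against 17.0%, 17.7% and 17.7%. Genes were also ordered by the longest coding transcript in GENCODE 29, over 7597 genes of at least 10 CPM. The 1521 shortest, up to 1787 bases, had a median log2 fold change of 0.07 with 66 genes higher and 3 lower, and the 1520 longest, from 5558 bases, had -0.07 with 7 higher and 23 lower. The medians of these shortest and longest genes were 0.10 and -0.09 in the parental library, 0.07 and -0.08 in the single-positive library and 0.01 and -0.04 in the double-positive library.

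Low-mitochondrial cells did not form a group of their own. When cells were clustered without mitochondrial genes, between 21.3% and 58.9% of the parental cells of a cluster were low-mitochondrial, over the 7 clusters with at least 20 parental cells. The range was 0 to 32.8% in the single-positive and 2.80% to 14.2% in the double-positive library. The nearest 30 cells of a low-mitochondrial cell in its library were themselves low-mitochondrial in 44.2%, 29.2% and 8.25% on average. The overall shares were 31.8%, 21.8% and 6.19%, and around reference cells the averages were 30.7%, 24.2% and 5.47%. Depth was not matched in these averages. Of 29 genes of cell-in-cell formation none passed, with a median of -0.07 and library medians of -0.05, -0.07 and -0.03.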

How the data were processed

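The deposited matrices hold UMI counts per gene and barcode, unfiltered for cells (737280 barcodes each). The submitters' processing notes name the build GRCh38, Seurat 4.0.6 and Cell Ranger 4.0.0. Which annotation release lay behind the features is not given in what was used here. Barcodes with at least 6500 UMIs and 500 genes were kept. Low-mitochondrial and reference cells were matched 1 to 1 within a library on non-mitochondrial UMIs within 5%. Summed counts without genes whose symbol begins MT- were tested with edgeR 4.0.16 (TMM scaling, filterByExpr, library as block, Benjamini-Hochberg); DESeq2 1.42.0 was an alternative. The pairing comes from the library, since both classes of cells share it. CPM values are TMM-scaled except over steps of mitochondrial share and for markers. Library log2 ratios add 0.5 UMIs to each sum.

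Genes were named by a rule: the 12 highest and 12 lowest called genes with 1 sign in every library and at least 30 CPM in the higher class. Left aside were antisense, clone-named, Y-linked, ribosomal protein and mitochondrially encoded genes, and XIST. Then came up to 4 members of each of 42 lists, and 8 genes in any case. The members and lists were chosen with earlier results of these data known. Phases were scored, from the S phase and the G2 and mitosis lists, and genes counted after thinning to 6000 UMIs. Clusters came from Leiden at resolution 0.5 on 2000 variable genes and 30 principal components. Near-empty droplets had at most 100 UMIs. Steps were tested on simulated data. Positions came from GENCODE 29 on GRCh38 by gene identifier (12739 of 12772 tested genes). Computation used Python 3.11.15, scanpy 1.11.5, scipy 1.17.1 and R 4.3.3.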

Additional observations from a re-analysis of the deposited data

Results flagged for a closer look

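Among the genes named by the rule, 9 had log2 ratios of low-mitochondrial over reference cells that went opposite ways in different libraries, with the counting interval of at least 1 library clear of 0 on each side. With 1 library per condition the difference between libraries was not tested, and counting intervals are narrow for genes whose UMIs lie mostly in few cells. The values follow in the order parental, single-positive and double-positive library. Of the squamous differentiation genes, SPRR2D had -0.35, 2.56 and 2.68, SPRR2A had -0.23, 2.38 and 2.17, and the elastase inhibitor PI3 had -0.45, 1.55 and 2.14. Of the interferon induced genes, CXCL10 had 0.78, 2.73 and -0.64, and OASL had 0.24, 1.97 and -0.41. The stress factor DDIT3 had 0.83, 0.68 and -0.24. The nuclear-retained RNA NEAT1 had -0.28, -0.10 and 0.10. Smaller values were found for ADM, at 0.124, -0.212 and -0.0714, and for ACTB, at 0.0183, 0.0294 and -0.0723. None of these genes passed the test across libraries.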

How the results depend on the processing

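The 139 higher and 61 lower genes became 577 and 334 without depth matching, 395 and 221 against reference cells of 1 to 3%, 347 and 195 without the 5 highest cells of each gene (added after seeing the data), 83 and 19 with DESeq2's Wald test, 70 and 23 for cells under 0.3%, and 44 and 10 at 6000 UMIs per cell, where 9122 genes could be tested. Without the library term, that is with no replicate block, they were 1 and 0, with 507 and 459 at an unadjusted p under 0.05. Leaving out a library gave 112 to 212 higher and 18 to 88 lower genes. Other settings (phase matching, a minimum of 10000 UMIs, no clusters mostly of 1 library, DESeq2 size factors, no filter on low counts) stayed within 1.5 times. The 12 highest genes kept their sign in each setting but the Wald test, where 6 of them had an adjusted p and these 6 kept it, and 12, 7 and 0 passed without matching, at 6000 UMIs and without the library term; of the 12 lowest, 7, 5 and 0 did. Shares of low-mitochondrial cells were 21.4%, 14.1% and 3.25% at a limit of 0.3%, 12.7% (single-positive) and 3.42% (double-positive) where the interquartile ranges of UMIs overlap, and 26.0% (single-positive) without clusters mostly of 1 library. Medians near 0 changed sign. With a library left out the medians ranged from -0.00585 to 0.122 for the amino acid and integrated stress response, -0.0291 to 0.00685 for endoplasmic reticulum chaperones, -0.0149 to 0.0437 for p53 targets, -0.0295 to 0.0432 for immediate early genes, -0.0582 to 0.00842 for heat shock chaperones, -0.0261 to 0.0091 for cholesterol synthesis, -0.0479 to 0.0514 for NRF2 targets and -0.0209 to 0.019 for membrane and integrin genes. Endoplasmic reticulum chaperones were at 0.019 with 6000 UMIs per cell, immediate early genes at 0.0175 for cells under 0.3%, and NRF2 targets and lysosome genes at -0.0932 and -0.013 without matching.

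With 1 library per condition, p-values measure how the class difference varies between these libraries. Matching covered 627 of 767 parental cells. Genes whose UMIs lie mostly in few cells, and low genes in the 117 double-positive pairs, are the least precise.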
